A study of Mus musculus with 16 samples.

Results

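The comparison described here set 3 retinas of 18-month-old wildtype (WT) C57BL6/J mice that received the fatty acid 24:5 by injection into the vitreous of 1 eye against 3 retinas from vehicle-injected fellow eyes. The dose was 0.36 nmol, and retinas were collected 5 days after the injection. These 6 RNA-seq libraries are all of the injected samples among the 16 of the study, and they were chosen by their treatment label. The other 10 are uninjected retinas, of which the wildtype groups at 12 months (n = 3) and 18 months (n = 4) are used below for a side-by-side reading of age. Of 48440 gene identifiers in the count table, 17466 had enough counts to be tested. Nothing in the labels ties a retina to an animal or says that no animal gave more than 1 library. All p-values below therefore speak of variation among these libraries, part of which may be technical. No uninjected eye was sequenced in the same table, so the injection itself has no control here.

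The name 24:5 gives a chain of 24 carbons with 5 double bonds. Polyunsaturated chains of this length are made by the elongase ELOVL2, and in the omega-3 series they lie on the route to docosahexaenoic acid, a main lipid of photoreceptor membranes. The labels do not name the series of the injected acid. Type I interferon acts through its receptor and transcription factors that bind interferon-stimulated response elements, and it switches on antiviral effectors and genes of class I antigen presentation. Class II antigen presentation depends on the co-activator CIITA and marks professional antigen-presenting cells. In the retina, microglia are the main resident immune cells, and they, the vessel wall and Müller glia can make complement.

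Libraries held 22066668 to 25609242 counts, and small structural RNAs held 8.69% to 13.7% of them. The retina label was borne out by photoreceptor RNA: Rom1, which encodes a disc protein of photoreceptor outer segments, was at 1833 to 2295 CPM (counts relative to the effective library size set by TMM) in all 6. The libraries did not sort by treatment on the first principal component (46.1% of the variance). Vehicle 1, vehicle 2 and supplemented 1 lay on one side of it, and vehicle 3, supplemented 2 and supplemented 3 on the other. Genes that follow this division are given per library below. No pair of replicates was alike within counting noise.

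The test across all genes called 2 genes lower with 24:5 and none higher, out of 17466 (0.0115% and 0%). Both are interferon-induced. Rnf213 (ENSMUSG00000070327, mm10 chromosome 11, 119393100 to 119487418, + strand) encodes a large E3 ubiquitin ligase that coats intracellular pathogens. It stood at 96.2, 87.0 and 87.1 CPM in vehicle replicates 1 to 3 and at 37.9, 43.3 and 38.2 CPM in 24:5 replicates 1 to 3. The lowest vehicle retina was thus well above the highest 24:5 retina, on both sides of the first component. Rnf213 fell by 1.18 on the log2 scale (SE 0.0827, edgeR quasi-likelihood adjusted p = 0.0117), a 2.26-fold lower level. Ifit1 encodes a protein that binds foreign RNA lacking a host cap and blocks its translation. It was at 26.3, 25.4 and 25.3 CPM with vehicle and 12.3, 12.2 and 13.2 CPM with 24:5. The 3 retinas of each group lay close together, and the groups did not overlap. Ifit1 fell by 1.03 on the log2 scale (SE 0.0880, edgeR adjusted p = 0.0257), a 2.04-fold lower level.

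The size of both differences held in all 14 alternative fits, from -1.24 to -1.13 on the log2 scale for Rnf213 and from -1.07 to -1.01 for Ifit1, while the adjusted p depended on which library was left out. Leaving out vehicle 1, vehicle 2, supplemented 2 or supplemented 3 left 0 calls (734, 1025, 966 and 792 genes still had an unadjusted p under 0.05), leaving out supplemented 1 left 1, and leaving out vehicle 3 gave 105, all lower. Leaving out vehicle 3 kept both genes, and without supplemented 1 the call kept was Rnf213. DESeq2 on the same counts called 243 genes lower (1.39%) and 3 higher, with Rnf213 and Ifit1 among the former. No other gene named below passed the edgeR threshold, and its values are given as a description.

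Of the 17466 genes, 8588 were lower and 8878 higher, with a median log2 fold change of 0.00, a balance that TMM scaling sets by centring the fold changes. An unadjusted p under 0.05 was reached by 902 genes that were lower (5.16%) and by 252 that were higher (1.44%). Groups did not overlap for 1183 lower genes (6.77%) and 841 higher genes (4.82%). A change of more than 1 on the log2 scale was measured for 458 genes downward and 55 upward. In the plot of all genes, the interferon-induced, MHC and complement genes lie on the lower side, and the rod and sterol genes are packed close to 0 on the higher side.

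**Figure D1:**
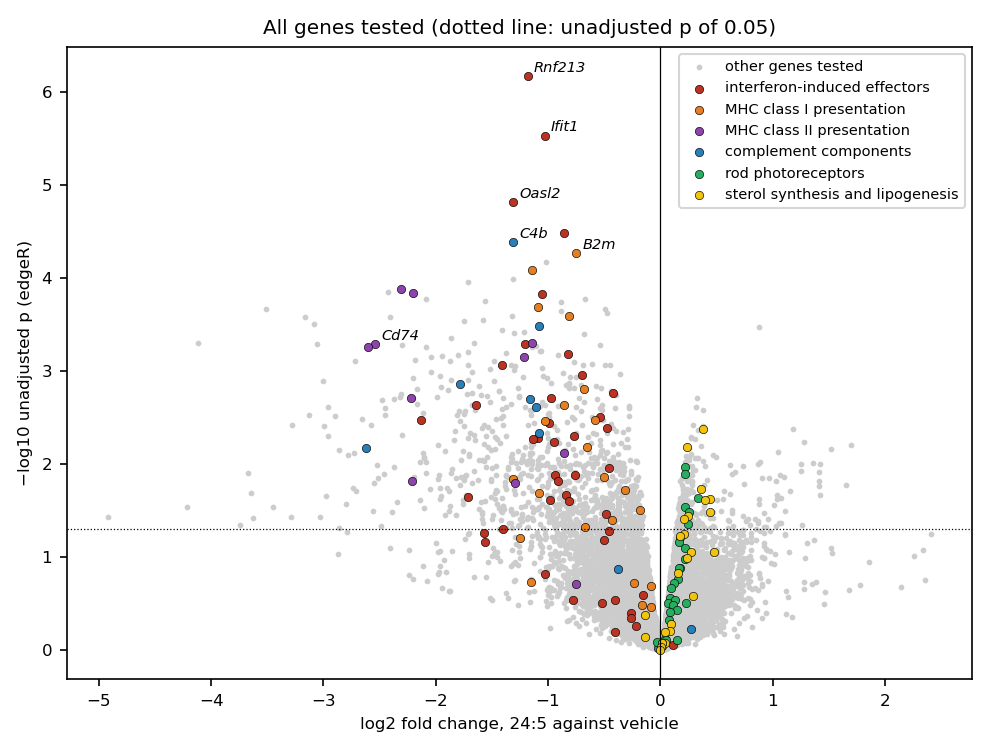
Each point is 1 of 17466 genes tested, with the log2 fold change of 24:5 against vehicle on the x axis and −log10 of the unadjusted edgeR p on the y axis; coloured points are members of 6 gene lists. Rnf213 and Ifit1, the 2 genes called, are at the top left, and 902 of the genes above the dotted line are lower against 252 higher.

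Interferon-induced genes were read beside their promoters, because the response element is a sequence. The core of the interferon-stimulated response element (GAAA, any 2 bases, GAAA) was searched on both strands in the 250 bases before RefSeq starts (GRCm38.p6). It was in the promoter of 380 of 11914 tested genes with an entry (3.19%, or 399 of 15272 windows, 2.61%). Genes lower with 24:5 at an unadjusted p under 0.05 held it in 61 of 689 cases (8.85%), and those higher in 6 of 171 (3.51%). In the list of interferon-induced effectors it was in 16 of 34 (47.1%). The STAT motif (TTC, any 3 bases, GAA) was in 51 of 689 lower genes (7.4%), close to the 856 of 11914 (7.18%) of all tested genes, and matches of the 2 motifs shared bases in 11 windows. The 5 promoters below belong to the genes with the smallest p among those that have an entry, and capitals mark the response element core on either strand, with the last base next to the start site.
Rnf213: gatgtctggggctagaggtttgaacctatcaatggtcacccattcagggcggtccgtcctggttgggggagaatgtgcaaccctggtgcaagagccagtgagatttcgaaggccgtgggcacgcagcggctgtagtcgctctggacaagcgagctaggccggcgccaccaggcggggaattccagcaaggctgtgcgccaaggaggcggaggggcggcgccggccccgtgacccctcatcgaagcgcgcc
Ifit1: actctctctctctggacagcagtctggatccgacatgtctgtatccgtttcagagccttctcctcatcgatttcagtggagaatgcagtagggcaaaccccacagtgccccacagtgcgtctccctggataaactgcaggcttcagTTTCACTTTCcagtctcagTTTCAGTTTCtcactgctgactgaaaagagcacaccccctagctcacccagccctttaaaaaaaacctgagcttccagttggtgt
Oasl2: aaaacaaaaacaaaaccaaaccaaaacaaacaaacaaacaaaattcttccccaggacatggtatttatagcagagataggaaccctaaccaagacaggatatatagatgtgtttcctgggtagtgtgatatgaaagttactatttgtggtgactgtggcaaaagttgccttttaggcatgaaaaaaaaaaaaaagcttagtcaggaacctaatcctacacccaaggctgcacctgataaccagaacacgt
B2m: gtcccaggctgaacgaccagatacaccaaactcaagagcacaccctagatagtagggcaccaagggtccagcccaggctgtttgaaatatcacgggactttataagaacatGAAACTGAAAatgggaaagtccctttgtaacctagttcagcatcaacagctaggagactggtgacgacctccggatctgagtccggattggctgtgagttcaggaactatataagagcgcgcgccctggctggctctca
H2-T23: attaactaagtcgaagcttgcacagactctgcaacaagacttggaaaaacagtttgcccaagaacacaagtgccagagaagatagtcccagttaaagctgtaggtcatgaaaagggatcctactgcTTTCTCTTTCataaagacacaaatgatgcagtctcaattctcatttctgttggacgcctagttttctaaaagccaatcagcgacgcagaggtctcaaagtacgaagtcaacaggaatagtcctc
These windows are chr11:119389849-119390098 (+), chr19:34640639-34640888 (+), chr5:114896684-114896933 (+), chr2:122147437-122147686 (+) and chr17:36032702-36032951 (−). Ifit1 carries 2 cores, ending 94 and 75 bases before the start, B2m carries 1 at 129 bases and H2-T23 1 at 114 bases. Rnf213, the gene with the smallest p, and Oasl2 hold none in this window. The RefSeq start of Rnf213 lies upstream of where the files' annotation begins the gene, and that of H2-T23 lies inside the annotated gene. A match is a description of letters, and an absent match says only that these letters are not in this window.

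The interferon-induced effectors were lower almost throughout. Of 44 members, all measured, 43 were lower and 1 higher, 29 were lower at an unadjusted p under 0.05 and the groups of 29 did not overlap. The median log2 fold change was -0.85, against 0.00 over all genes, and edgeR called 2 and DESeq2 20 members. Oasl2 encodes an oligoadenylate synthetase-like protein of the antiviral response. Its level was 35.3, 37.3 and 28.9 CPM with vehicle and 15.8, 13.3 and 12.0 CPM with 24:5, again without overlap (log2 -1.31, SE 0.139, edgeR adjusted p = 0.0889). Parp14, an ADP-ribosyltransferase induced by interferon, was at 32.5, 34.6 and 33.2 CPM against 20.4, 18.6 and 16.3 CPM (log2 -0.86, SE 0.102, edgeR adjusted p = 0.142). Eif2ak2 encodes PKR, the kinase that stops translation on sensing double-stranded RNA, and was at 14.9, 15.4 and 18.9 CPM against 7.24, 9.31 and 7.25 CPM (log2 -1.05, SE 0.154). In each of these the groups stood clear of each other in all 6 libraries.

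A few members of the same list followed the libraries rather than the treatment. Irgm1, an interferon-inducible GTPase of autophagy, was at 21.2, 21.6 and 74.4 CPM with vehicle and 12.3, 30.6 and 25.4 CPM with 24:5. Trim25, the ubiquitin ligase that activates RIG-I, was at 32.7, 34.8 and 99.4 CPM against 21.5, 91.4 and 67.4 CPM. Vehicle 3 was highest for both, supplemented 1 was lowest, and the groups overlapped. Trim25 was the 1 member that was higher (log2 0.11, SE 0.710), and it was lower without supplemented 2, without vehicle 1 or without vehicle 2. Within the pair of library sets, the list median was -0.91 (vehicle 1, vehicle 2 and supplemented 1) and -0.65 (vehicle 3, supplemented 2 and supplemented 3), with 43 and 42 of 44 members lower.

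**Figure D2:**
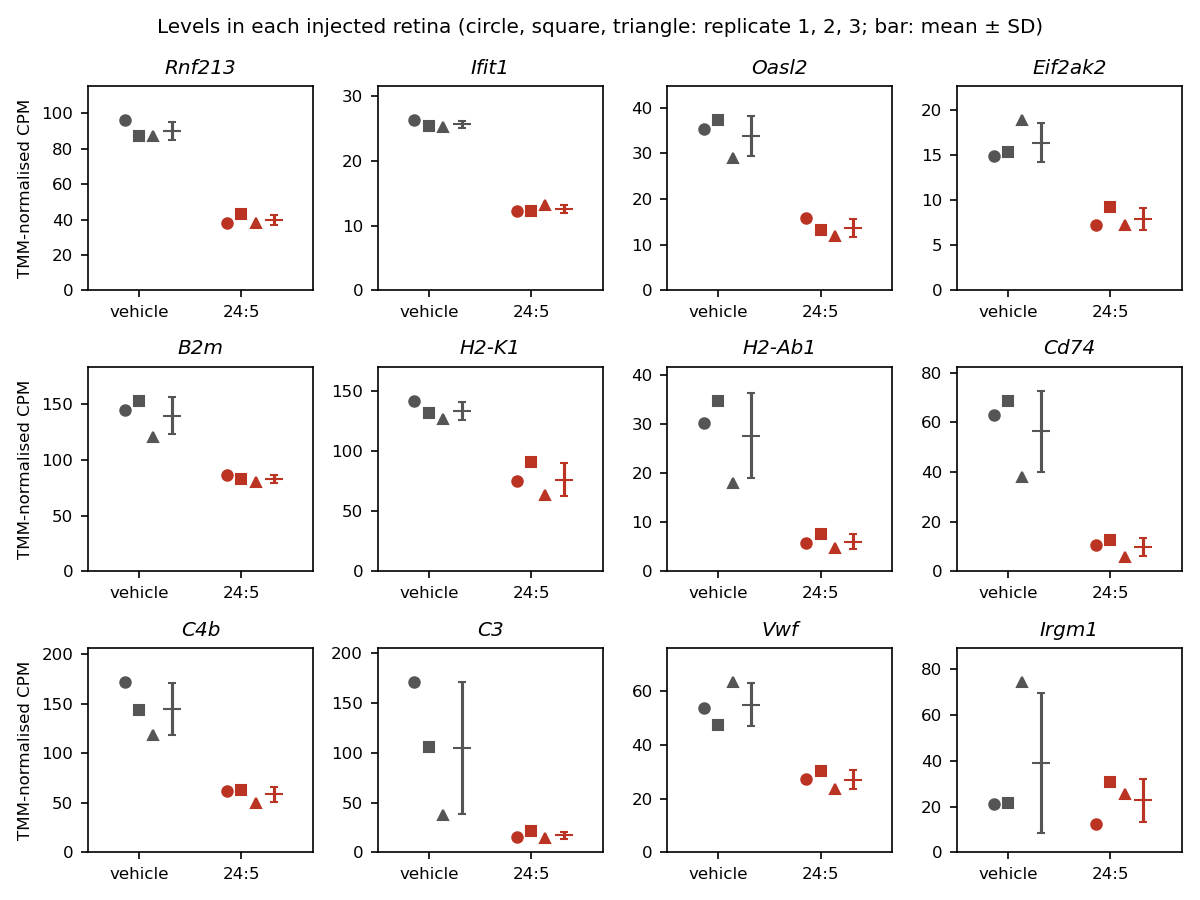
TMM-normalised CPM (y axis, from 0) of 12 genes in each of the 6 injected retinas, grey for vehicle and red for 24:5, with the mean ± SD of 3 beside the points. For 11 genes every vehicle retina is above every 24:5 retina, whereas Irgm1 (lower right) overlaps because vehicle 3 stands at 74.4 CPM.

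Upstream of the effectors, sensors of foreign nucleic acid were lower. Of the 25 sensing and signalling genes, 20 were lower and 5 higher, 9 had an unadjusted p under 0.05, all lower, and the median was -0.29. Tlr9, the endosomal receptor for unmethylated DNA, was at 1.26, 1.59 and 1.06 CPM with vehicle and 0.239, 0.212 and 0.491 CPM with 24:5 (log2 -2.04, SE 0.404). Ifih1, which encodes the RNA sensor MDA5, was at 20.7, 17.6 and 26.7 CPM against 13.3, 8.80 and 10.1 CPM (log2 -1.01, SE 0.202). Cgas, the cytosolic DNA sensor, was at 0.698, 0.544 and 0.710 CPM against 0.159, 0.212 and 0.123 CPM (log2 -1.95, SE 0.409). Groups did not overlap for these 3 sensors, although Tlr9 and Cgas rest on few counts. The receptor subunit gene Ifnar1 was nearer in level, at 58.8 ± 5.82 CPM against 49.1 ± 1.23 CPM (SD, n = 3 each; log2 -0.26). Irf7, the transcription factor that amplifies interferon production, was at 26.3, 28.1 and 60.4 CPM against 13.1, 29.3 and 18.1 CPM, with overlap. The ligand genes Ifnb1 and Ifng had 0 counts in every library.

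Class I antigen presentation, which shows peptides from inside the cell to CD8 T cells, was lower in all 22 measured genes. Of these, 16 had an unadjusted p under 0.05, 16 did not overlap between groups, DESeq2 called 8 and the median was -0.67. B2m, the invariant light chain of every class I molecule, was at 145, 153 and 121 CPM with vehicle and 86.5, 82.6 and 80.1 CPM with 24:5. Its log2 fold change was -0.75 (SE 0.0951, edgeR adjusted p = 0.156), with no overlap between groups. The classical heavy chain gene H2-K1 was at 142, 132 and 127 CPM against 75.0, 90.8 and 63.4 CPM (log2 -0.81, SE 0.127). H2-T23, which encodes the ligand of the NK receptor NKG2A, was at 25.9, 24.6 and 19.7 CPM against 12.5, 9.69 and 9.58 CPM (log2 -1.14, SE 0.154). H2-Q6 had a mean of 8.84 ± 1.41 CPM against 4.14 ± 0.154 CPM (SD, n = 3 each). Heavy chain genes are near-copies of one another, so the share of reads given to each is uncertain, whereas B2m is a single gene.

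The largest shift of any immune list was in class II antigen presentation. Of 12 genes, 11 had enough counts, all 11 were lower, 10 had an unadjusted p under 0.05, 9 did not overlap and the median was -2.20. DESeq2 called 7. Ciita, the master regulator of the class, was at 2.62, 3.64 and 1.91 CPM with vehicle and 0.557, 0.635 and 0.450 CPM with 24:5 (log2 -2.31, SE 0.333, edgeR adjusted p = 0.171). Cd74, the invariant chain, was at 62.8, 68.6 and 38.0 CPM against 10.7, 12.8 and 5.69 CPM (log2 -2.54, SE 0.367, edgeR adjusted p = 0.197). The β chain gene H2-Ab1 was at 30.3, 34.7 and 18.0 CPM against 5.81, 7.66 and 4.67 CPM (log2 -2.20, SE 0.290). Vehicle 3 was the lowest vehicle retina for all 3 genes, yet stood above every 24:5 retina. The partner chain H2-Aa (log2 -2.60) and H2-Eb1 (log2 -2.22) were of like size, and the protease gene Ctss, which trims the invariant chain, had a smaller difference at 104 ± 22 CPM against 47.3 ± 7.43 CPM (SD, n = 3 each). In bulk retina, fewer cells of a type and less RNA per cell cannot be told apart, here and for every cell type list below.

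Complement components, the secreted proteins that tag cells and debris, were lower in 9 of 10 measured genes. Of the 16 in the list, 6 had too few counts, and 7 of the 10 had an unadjusted p under 0.05, did not overlap and were called by DESeq2. The median was -1.10. C4b, the mouse C4 component, was at 172, 144 and 119 CPM with vehicle and 62.2, 63.4 and 50.2 CPM with 24:5 (log2 -1.31, SE 0.151, edgeR adjusted p = 0.144). C3, the central component, was at 171, 106 and 38.0 CPM against 15.8, 21.2 and 14.5 CPM (log2 -2.62, SE 0.593, edgeR adjusted p = 0.420). The vehicle retinas thus spread over a wide range for C3, though the lowest was still above the highest 24:5 retina. C1qa, a chain of the recognition molecule C1q made by microglia, was at 42.4 ± 11.3 CPM against 19.0 ± 4.20 CPM. The proteases of the C1 complex were lower as well, C1s1 at 6.35 ± 0.261 against 3 ± 0.419 CPM and C1ra at 8.21 ± 3.84 against 2.38 ± 0.344 CPM (SD, n = 3 each).

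Receptors and regulators of complement shared the direction in 11 of 12 measured genes, with 6 at an unadjusted p under 0.05 and a median of -0.82. Serping1, the inhibitor of the C1 proteases, was at 63.6, 45.3 and 44.6 CPM with vehicle and 16.8, 25.9 and 19.5 CPM with 24:5 (log2 -1.30, SE 0.203). C3ar1, the receptor of the C3a fragment, was at 14.4 ± 6.11 against 4.37 ± 0.648 CPM, and Itgb2, the shared chain of complement receptors 3 and 4, at 12.8 ± 2.38 against 5.11 ± 1.10 CPM (SD, n = 3 each). Clu, an abundant inhibitor of the terminal pathway and a chaperone of retina, was at 1305 ± 209 against 895 ± 80.5 CPM (log2 -0.54, SE 0.124). Activators and inhibitors of the cascade were thus lower side by side.

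**Figure D3:**
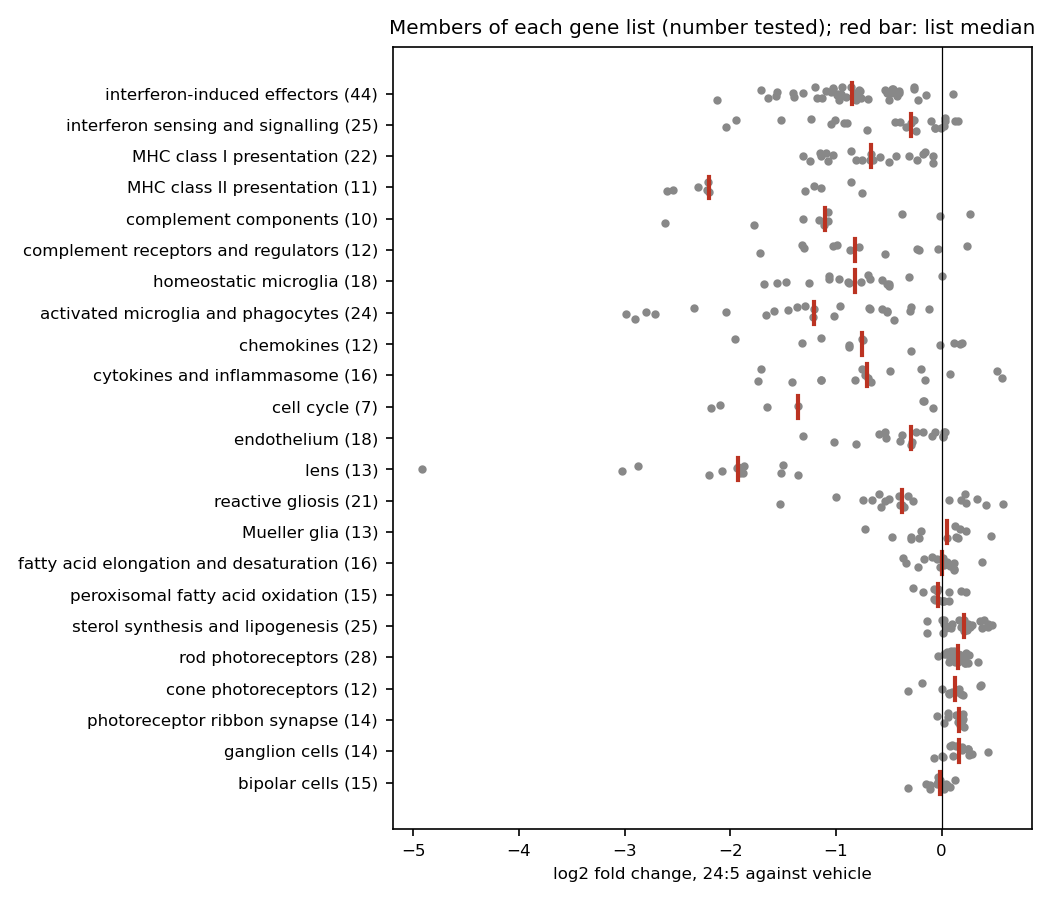
Each point is the log2 fold change (x axis) of 1 gene, 24:5 against vehicle, in 23 gene lists (y axis, number of genes tested in brackets), and the red bar is the list median. MHC class II has a median of -2.20 and interferon-induced effectors of -0.85, while rod genes lie between -0.03 and 0.34.

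Genes of microglia and other phagocytes were mostly lower, and the genes that mark monocytes and macrophages were among those with the largest differences. All 24 measured genes of activated microglia and phagocytes were lower, 19 at an unadjusted p under 0.05 and 18 without overlap, with a median of -1.21. Ccr2, the chemokine receptor of inflammatory monocytes, was at 19.8, 19.6 and 9.54 CPM with vehicle and 2.47, 3.47 and 0.614 CPM with 24:5 (log2 -2.90, SE 0.601, edgeR adjusted p = 0.300). Ms4a7, a macrophage membrane gene, was at 5.32, 5.77 and 1.38 CPM against 0.835, 0.550 and 0.164 CPM (log2 -2.99, SE 0.698, edgeR adjusted p = 0.329). For both, vehicle 3 was the lowest vehicle retina and still above every 24:5 retina. Tlr2, a receptor for bacterial lipoproteins, was at 6.85, 5.48 and 4.93 CPM with vehicle and 2.31, 2.79 and 2.37 CPM with 24:5. Fcgr1, the high-affinity IgG receptor, was at 8.90, 10 and 5.15 CPM against 2.23, 3.22 and 2.17 CPM (log2 -1.66, SE 0.293). Itgax, the CD11c integrin chain, had a mean of 4.33 ± 1.88 against 1.05 ± 0.267 CPM, and the signalling adaptor of Fc receptors, Fcer1g, of 8.25 ± 2.15 against 3.18 ± 0.656 CPM (SD, n = 3 each). Outside the lists, 2 further leukocyte genes were among the 15 lower genes with the smallest p, Cd300a, an inhibitory receptor (log2 -2.09, SE 0.313), and Themis2, a signalling adaptor (log2 -2.42, SE 0.353).

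Homeostatic genes, which mark surveying microglia, had log2 fold changes of 0 or below in all 18 measured cases, but only 9 had an unadjusted p under 0.05 and 7 did not overlap (median -0.82). Csf1r, the growth factor receptor that keeps microglia alive, was at 60.3, 55.7 and 36.7 CPM with vehicle and 34.9, 26.9 and 21.1 CPM with 24:5. P2ry12, the purinergic receptor of surveying processes, was at 5.23, 6.4 and 3.59 CPM against 6.56, 2.12 and 2.09 CPM. Cx3cr1, the fractalkine receptor, was at 24.9, 21.7 and 15.7 CPM against 19.1, 10.2 and 2.54 CPM. Siglech, a lectin of microglia, was at 2.27, 2.68 and 2.48 CPM against 3.78, 1.73 and 1.88 CPM (log2 -0.00, SE 0.328), and the receptor gene Gpr34 at 5.23, 4.22 and 2.35 CPM against 7.56, 1.40 and 0.573 CPM (log2 -0.31, SE 0.916). Supplemented 1 was the highest of all 6 retinas for P2ry12, Siglech and Gpr34. It lay within or above the vehicle range for P2ry12 and Cx3cr1, and below it for Csf1r and the class II genes Ciita, Cd74 and H2-Ab1. Of the genes with the smallest p, Olfml3 was at 22.3 ± 1.40 against 13.9 ± 1.61 CPM, Laptm5 at 18.3 ± 4.60 against 8.69 ± 0.682 CPM, the pan-leukocyte phosphatase Ptprc at 17.5 ± 6.44 against 5.45 ± 1.61 CPM and the adaptor Tyrobp at 18.8 ± 6.21 against 8.92 ± 1.17 CPM (SD, n = 3 each). Whether the 2 lists differ from each other was not tested, and their order changed with the libraries: the medians were -0.50 (homeostatic) and -1.34 (activated) within vehicle 1, vehicle 2 and supplemented 1, and -0.73 and -0.62 within the other 3.

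Markers of lymphocytes and neutrophils were near the limit of detection. Only 2 of 14 T and NK cell genes, 2 of 7 B cell genes and 1 of 11 neutrophil genes had enough counts. The summed level of the T and NK list was 2.64 to 5.58 CPM with vehicle and 1.19 to 3.02 CPM with 24:5, and that of the neutrophil list 3.64 to 7.36 and 2.50 to 2.96 CPM. Among defining markers, Cd3e had 0, 0 and 4 counts with vehicle and 1, 0 and 0 with 24:5, and the neutrophil granule genes Camp, Elane and Ngp had 0 in every library.

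Among soluble signals, most chemokine and cytokine genes were lower or too scarce to test. Of 18 chemokines 12 were tested, 9 were lower and 2 had an unadjusted p under 0.05, and Cxcl16, a membrane-bound chemokine, was at 17.5 ± 0.575 against 10.4 ± 2.85 CPM (SD, n = 3 each). The chemokine median was -0.58 within vehicle 1, vehicle 2 and supplemented 1. It was -0.02, with 6 of 12 lower, within vehicle 3, supplemented 2 and supplemented 3. Of 21 cytokine and inflammasome genes 16 were tested, 13 were lower and 3 higher, and 6 had an unadjusted p under 0.05. Their median was -0.95 and -0.24 within the same sets of libraries. Their summed level crossed the groups, at 183, 177 and 534 CPM with vehicle and 124, 493 and 556 CPM with 24:5. P2rx7, the ATP-gated channel that triggers the inflammasome, was at 4.19, 4.27 and 3.28 CPM with vehicle and 1.27, 1.35 and 0.942 CPM with 24:5 (log2 -1.71, SE 0.242, edgeR adjusted p = 0.171). Gsdmd, the pore former of pyroptosis, was at 3.05, 3.51 and 3.11 CPM against 1.43, 1.44 and 1.51 CPM (log2 -1.14, SE 0.204). Both had groups without overlap and little spread within them. The antagonist gene Il1rn was also lower, at 1.16 ± 0.474 against 0.341 ± 0.0556 CPM (SD, n = 3 each). The chemokine Ccl17, outside this list, was among the 15 higher genes with the smallest p, at 0.305, 0.335 and 0.266 CPM against 0.517, 0.973 and 1.15 CPM, which is a handful of reads in each vehicle library.

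Genes of dividing cells were scarce and lower. Of 10 cell cycle genes 7 were tested, all 7 were lower, 4 had an unadjusted p under 0.05 without overlap and the median was -1.36. Mki67, the proliferation antigen, was at 5.19, 2.89 and 3.64 CPM with vehicle and 1.39, 0.677 and 0.491 CPM with 24:5 (log2 -2.18, SE 0.412). Cdk1, the mitotic kinase, was at 0.611, 0.627 and 0.843 CPM against 0.318, 0.127 and 0.205 CPM, and Top2a, the mitotic topoisomerase, at 4.80, 2.38 and 2.88 CPM against 1.11, 1.06 and 0.164 CPM. Every vehicle retina was above every 24:5 retina for all 3.

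The vessel wall gave a mixed picture. Of 18 endothelial genes 14 were lower and 4 higher, 5 had an unadjusted p under 0.05, all lower, and the median was -0.29. Vwf, which encodes von Willebrand factor, was at 54.0, 47.6 and 63.5 CPM with vehicle and 27.3, 30.5 and 23.5 CPM with 24:5 (log2 -1.02, SE 0.134, edgeR adjusted p = 0.166). Cd93, a lectin-like receptor of endothelium and myeloid cells, was at 24.8, 21.7 and 17.2 CPM against 8.47, 10.2 and 6.96 CPM (log2 -1.31, SE 0.183). Both stood apart from Pecam1, a general endothelial marker, whose means were 19.1 ± 0.741 and 16.9 ± 2.2 CPM (log2 -0.18, SE 0.115) with overlapping groups. Cldn5, the tight junction protein of the blood-retina barrier, was at 19.9 ± 1.36 against 13.7 ± 2.66 CPM and Cd34 at 15.3 ± 0.985 against 10.6 ± 0.680 CPM. Of 8 genes of leukocyte adhesion 5 were lower and 3 higher, 3 had an unadjusted p under 0.05, all lower, and the median was -0.35. The adhesion molecule genes Vcam1, at 36.1 ± 4.69 against 19.7 ± 2.50 CPM, and Icam1, at 7.92 ± 2.76 against 3.48 ± 1.39 CPM, did not overlap between groups (SD, n = 3 each). Of 12 fibroblast and matrix genes 7 were lower and 5 higher (median -0.14), and Fn1, which encodes fibronectin and had the smallest p of them, was at 103 ± 21.8 against 60.7 ± 12.6 CPM. Of 11 genes of senescence and IGF binding 9 were lower (median -0.27), and Igfbp5, a secreted binder of insulin-like growth factors, was at 73.9 ± 8.12 against 50.8 ± 3.04 CPM. The median of this list was -0.49, with 9 of 11 lower, within vehicle 1, vehicle 2 and supplemented 1. It was 0.03, with 5 lower, within vehicle 3, supplemented 2 and supplemented 3.

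RNA of the lens was present and unequal between libraries. The summed level of 22 lens genes was 1828, 1966 and 139 CPM in vehicle 1 to 3 and 733, 139 and 62.1 CPM in supplemented 1 to 3, and all 13 members with enough counts were lower with 24:5, none without overlap (median -1.93). Cryge was at 0 in all libraries. Red blood cell genes summed to 12.2 to 46.5 CPM with vehicle and 15.7 to 32.8 CPM with 24:5. The part of lens RNA in the results was not tested.

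Genes of reactive gliosis, the injury response of Müller glia and astrocytes, followed the libraries. Of 21 genes 14 were lower and 7 higher, 1 had an unadjusted p under 0.05 and the median was -0.38. The list median was -1.69 within the set of vehicle 1, vehicle 2 and supplemented 1 and -0.32 within the other. Gfap, the glial filament, was at 119, 103 and 159.9 CPM with vehicle and 49.9, 142 and 115 CPM with 24:5 (log2 -0.32, SE 0.414), and its difference was 0.00 without supplemented 1. Stat3, the transcription factor of the response, was at 211, 201 and 362 CPM against 103, 369 and 406 CPM. Lcn2, a secreted acute phase protein, was at 229, 156 and 139.6 CPM against 15.4, 126 and 39.7 CPM. Supplemented 1 had the lowest level of all 3. Resting Müller glia genes were balanced (6 lower, 7 higher of 13, median 0.05), with the potassium channel gene Kcnj10 at 49.6 ± 2.50 against 29.9 ± 10.5 CPM (SD, n = 3 each).

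**Figure D4:**
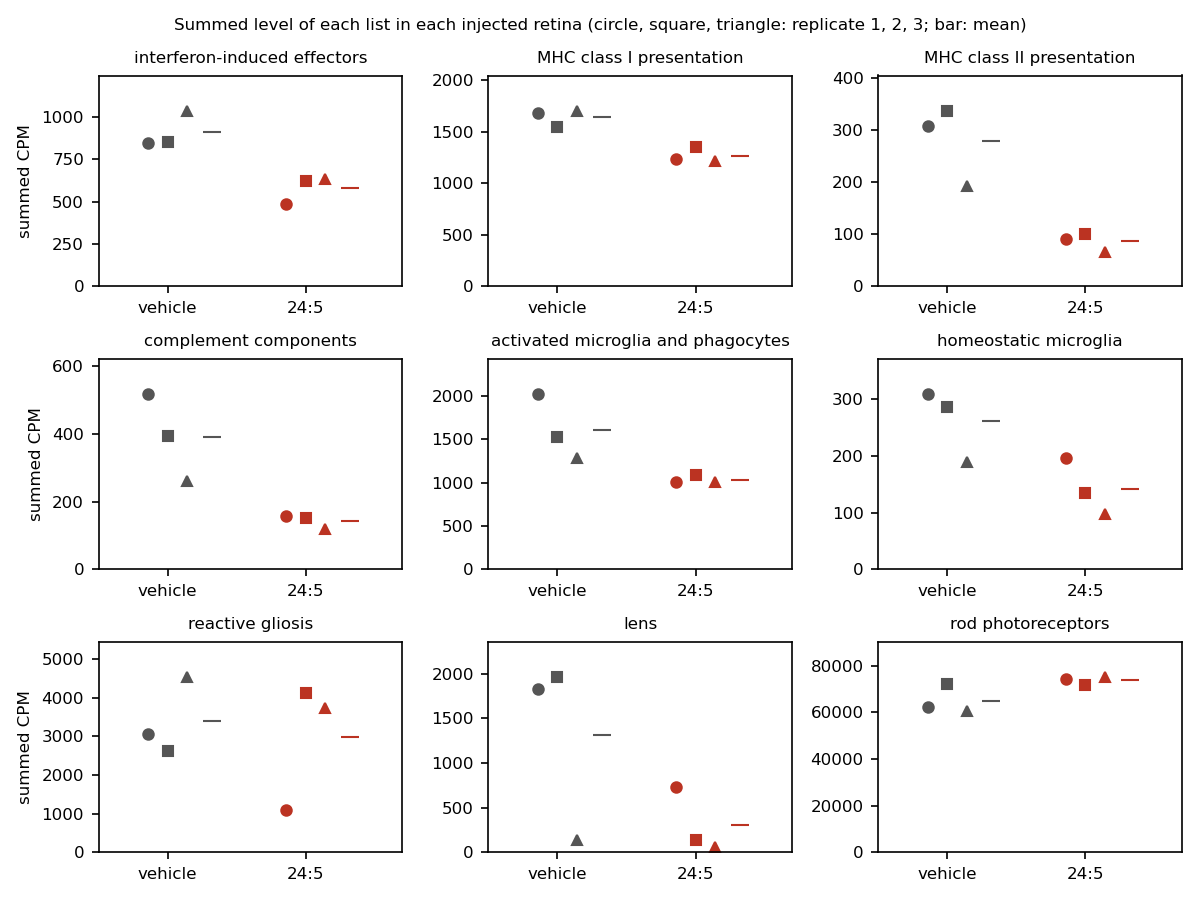
Summed TMM-normalised CPM (y axis, from 0) of 9 gene lists in each injected retina, grey for vehicle and red for 24:5, with a bar at the mean of 3. Vehicle and 24:5 retinas separate for the interferon-induced, MHC and complement lists, whereas gliosis is lowest in supplemented 1 at 1104 CPM and lens RNA is high in vehicle 1 and vehicle 2.

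Genes that make and burn fatty acids showed little difference with the injected fatty acid. Of 16 tested genes of elongation and desaturation, 8 were lower and 8 higher, with a median of -0.00 and 2 at an unadjusted p under 0.05. Elovl2 was at 68.7, 69.4 and 64.3 CPM with vehicle and 69.3, 62.1 and 68.3 CPM with 24:5 (log2 -0.02, SE 0.0727), and the groups overlapped. Elovl4, the photoreceptor elongase for still longer chains, was at 536 ± 26.4 against 583 ± 38.3 CPM (log2 0.12, SE 0.0747). Elovl5, which acts on shorter chains, was at 46.7, 45.6 and 46.5 CPM against 42.1, 38.5 and 38.6 CPM (log2 -0.22, SE 0.0701), a small difference without overlap. The desaturase genes Fads1, at 59.4 ± 7.13 against 52.7 ± 4.14 CPM, and Fads2, at 38.1 ± 4.53 against 29.6 ± 5.26 CPM, overlapped between groups (SD, n = 3 each). Peroxisomal oxidation, which shortens very long chains, had a median of -0.03 over 15 genes with 0 at an unadjusted p under 0.05, and mitochondrial oxidation a median of -0.05 over 19 genes. Acadvl, which starts mitochondrial oxidation of long chains, was at 79.0, 78.1 and 73.6 CPM against 98.0, 92.6 and 86.3 CPM (log2 0.26, SE 0.0724). It was 1 of the 15 higher genes with the smallest p.

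Sterol synthesis was the lipid pathway with most members on the higher side. Of 25 genes, 23 were higher, 8 at an unadjusted p under 0.05 and 8 without overlap, with a median of 0.21 and 0 calls by edgeR or DESeq2. The summed level overlapped between groups, at 1799, 1922 and 2112 CPM with vehicle and 1916, 2233 and 2375 CPM with 24:5. The median was 0.12, with 7 of 25 lower, within vehicle 1, vehicle 2 and supplemented 1. It was 0.15, with 6 lower, within vehicle 3, supplemented 2 and supplemented 3. Insig1, the sterol sensor that restrains the pathway and is itself one of its targets, was at 73.3, 86.7 and 71.9 CPM with vehicle and 95.4, 97.0 and 109.5 CPM with 24:5 (log2 0.38, SE 0.0955, edgeR adjusted p = 0.341). Its groups stood apart by a small step. Apoe and Abca1, of sterol efflux, were lower without overlap. Apoe, the lipid carrier made by glia, was at 911, 805 and 657 CPM against 515, 503 and 353 CPM (log2 -0.79, SE 0.177), and the exporter gene Abca1 at 153 ± 5.43 against 109 ± 12.9 CPM (log2 -0.49, SE 0.0948). The list of sterol efflux and LXR targets had 7 of 10 members lower (median -0.14), but its median was -0.02 without vehicle 2 and 0.04, with 5 of 10 lower, within vehicle 3, supplemented 2 and supplemented 3.

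The lists of lipid handling were evenly split, with 8 lower and 8 higher among PPAR factors and responsive genes (median 0.01) and 11 and 11 among genes of fatty acid uptake and phospholipid remodelling (median 0.00). Their members with the smallest p in the lower direction include Plin2 and Fabp5. Plin2, the coat protein of lipid droplets, was at 15.8 ± 3.14 against 10.6 ± 1.04 CPM, and the fatty acid binding protein gene Fabp5 at 35.8 ± 8.28 against 23.8 ± 2.02 CPM (SD, n = 3 each). Lipid mediator genes were lower in 10 of 11 cases, 5 at an unadjusted p under 0.05 (median -0.26). Cmklr1, a receptor for chemerin, was at 3.10, 3.43 and 2.31 CPM against 1.31, 1.78 and 1.31 CPM, and Ptgs1, the constitutive cyclooxygenase, at 4.12 ± 0.768 against 2.41 ± 0.630 CPM. Of 23 peroxide defence genes 18 were lower, 6 at an unadjusted p under 0.05, with a median of only -0.09. The ferritin light chain gene Ftl1 was at 296, 242 and 244 CPM against 216, 199.7 and 196 CPM, and Prdx6, a peroxiredoxin that reduces phospholipid hydroperoxides, at 175 ± 13.1 against 130.3 ± 18.9 CPM.

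Photoreceptor genes were slightly higher with 24:5. Of 28 rod genes 27 were higher, 6 at an unadjusted p under 0.05 and 4 without overlap, with a median of 0.15 against 0.00 over all genes and 0 calls. Rom1 was at 1896, 1902 and 1833 CPM with vehicle and 2295, 2072 and 2183 CPM with 24:5 (log2 0.22, SE 0.0657), and Guca1b, which couples calcium to guanylate cyclase, at 676, 728 and 712 CPM against 787, 808 and 868 CPM (log2 0.22, SE 0.0680). Rdh12, the retinol dehydrogenase of photoreceptors, was at 294 ± 26.6 against 363 ± 12.5 CPM, Kcnj14, a potassium channel gene, at 287 ± 26.0 against 362 ± 20.5 CPM, and Samd11 at 224 ± 14.3 against 274 ± 9.87 CPM (SD, n = 3 each). These values are shares of a library's counts, and rod genes alone summed to 60734 to 75317 CPM in the 6 libraries.

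Cones and inner retinal neurons varied by cell type. Opn1sw, the short-wavelength cone opsin gene, was at 167, 362 and 222 CPM with vehicle and 469.8, 339 and 157 CPM with 24:5, a spread that crossed the groups and that reversed the sign (log2 -0.02) without supplemented 1. Cone genes were higher in 9 of 12 cases (median 0.13, and -0.02 to 0.18 with 1 library left out). Genes of the ribbon synapse were higher in 13 of 14 (0.16), with the release machinery gene Stx3 at 652 ± 12.0 against 716 ± 10.4 CPM and the calcium channel subunit gene Cacna2d4 at 505 ± 13.4 against 569 ± 42.4 CPM. The ribbon synapse median was 0.05, with 5 of 14 lower, within vehicle 1, vehicle 2 and supplemented 1. It was 0.15, with 2 lower, within vehicle 3, supplemented 2 and supplemented 3. Ganglion cell genes were higher in 12 of 14 (0.16), of which the neurofilament gene Nefl was at 511, 474 and 452 CPM against 604, 526 and 577 CPM (log2 0.25, SE 0.0795). Bipolar cell genes were balanced, 8 lower and 7 higher (median -0.02). The list of axon injury and integrated stress had 11 of 15 genes higher and a median of 0.09, which ran from -0.01 to 0.20 with 1 library left out and was -0.06 and -0.02 within the sets of libraries. Its 2 genes with the smallest p were higher. Asns, the asparagine synthetase gene of the integrated stress response, was at 59.3 ± 5.53 against 77.7 ± 12.4 CPM, and Chac1 at 2.67 ± 0.0828 against 3.69 ± 0.376 CPM (SD, n = 3 each).

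The 3 named higher genes with the smallest p differed by small steps between tightly grouped replicates. Uckl1, a uridine kinase-like gene, was at 168, 166 and 147 CPM with vehicle and 204, 202 and 199.8 CPM with 24:5 (log2 0.33, SE 0.0729, edgeR adjusted p = 0.264). Pnpla3, a lipid droplet acylhydrolase induced by sterol regulatory factors, was at 31.9, 30.0 and 29.9 CPM against 36.9, 38.2 and 39.4 CPM (log2 0.32, SE 0.0730, edgeR adjusted p = 0.278). Slc9a5, a sodium-proton exchanger gene, was at 24.4 ± 1.86 against 31.7 ± 1.13 CPM (log2 0.38, SE 0.0873). The groups of all 3 were apart, by less than 1.5-fold. Not all of the 15 higher genes were like them, as Ccl17 differed by 2.87-fold on few reads.

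The uninjected wildtype retinas were used to ask where the same genes stood with age. They are in another table in FPKM, a count per length and depth, so only the comparisons are set side by side. By limma, 0 of 13786 genes passed between 18 and 12 months and 503 had an unadjusted p under 0.05. Rnf213 was at 1.54, 1.37 and 0.913 FPKM at 12 months and 0.744, 1.41, 1.71 and 1.01 FPKM at 18 months, with overlap (log2(FPKM + 1) difference -0.04, SE 0.163). Ifit1 was at 2.27 ± 0.940 (SD, n = 3) and 3.74 ± 2.29 FPKM (SD, n = 4), a difference of 0.45 (SE 0.444). B2m was at 42.9 ± 16.5 and 48.6 ± 5.01 FPKM, and C4b at 5.20 ± 4.94 and 3.92 ± 0.409 FPKM. Replicate 1 at 12 months held the highest value of both, with 61.8 FPKM for B2m and 10.9 FPKM for C4b.

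Genes that were lower with 24:5 had no common direction with age where they could be read. Of the 902 at an unadjusted p under 0.05, 397 were also in the age comparison. Of these, 177 were higher and 220 lower at 18 months, with a median of -0.02. The median was 0.05 without replicate 1 at 12 months. The rest of the 902 cannot be read, whereas 12861 of all 17466 genes were in the age comparison. Of the 12861 genes tested in both tables, 49.8% were higher at 18 months, with a median of -0.00. The 24 interferon-induced effectors in the age comparison were higher at 18 months in 19 cases (median 0.10), and the 18 class I genes in 11 (median 0.04). The 5 class II genes were lower in 3 (median -0.11), with Cd74 at 4.29, 0.972 and 1.10 FPKM at 12 months and 1.25, 0.635, 0.707 and 0.888 FPKM at 18 months. Rod genes were higher in 20 of 28 (median 0.05) and sterol synthesis genes in 14 of 24 (median 0.03).

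**Figure D5:**
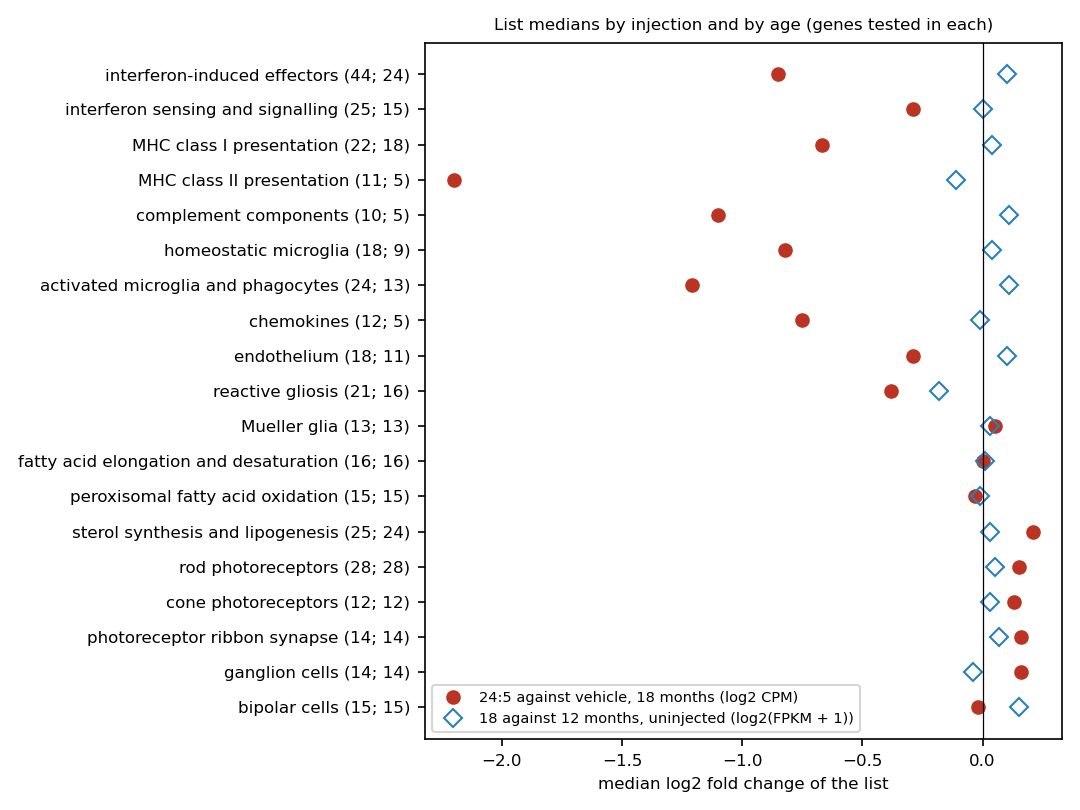
Median log2 fold change (x axis) of 19 gene lists (y axis, genes tested with 24:5 and with age in brackets), filled red circles for 24:5 against vehicle on log2 CPM and open blue diamonds for 18 against 12 months in uninjected retinas on log2(FPKM + 1). The age medians lie between -0.18 and 0.15, and the 24:5 medians of the immune lists reach -2.20. The 1 added to FPKM shrinks age differences of genes near 1 FPKM, so sizes cannot be compared between the 2 scales.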

How the data were processed

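Whole-retina RNA-seq libraries were made from poly(A)-selected RNA with a protocol that marks strand, per the labels' protocols. Small structural RNAs nevertheless held 8.69% to 13.7% of the counts in the injected libraries, and the reason was not tested. Injected retinas were taken from a table of raw counts per Ensembl gene as deposited by the authors, and uninjected retinas from a table of FPKM values (fragments relative to transcript length and depth) as deposited by the authors. HISAT2 2.2.1, featureCounts 2.0.6, DESeq2 1.42.0 and the mm10 build are named, with no role or order, per the submitters' processing notes. How strand was set in the counting, and which annotation release it used, is not given in the sources used here, so overlapping and antisense genes cannot be told apart. Symbols were matched for 48058 of 48440 identifiers.

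Counts were tested with edgeR 4.0.16 in R 4.3.3 (robust quasi-likelihood, TMM, filterByExpr), two-sided, with Benjamini-Hochberg adjustment over all 17466 genes tested and a threshold of 0.05. Levels are CPM on TMM-scaled library sizes, and SEs are the log2 fold change divided by the square root of F. FPKM values were tested with limma 3.58.1 (trend, robust) on log2(FPKM + 1), over genes with a mean of at least 1 FPKM. The tables were normalised separately, so no level is compared between them. Totals of 22066668 to 25609242 counts set the precision. On simulated counts (17211 genes) the edgeR step recovered 35.8%, 85.1% and 98.5% of genes changed 1.5-fold, 2-fold and 4-fold, with 19 false calls. The changed genes were drawn from well-counted ones, and all genes varied independently, without the division of the libraries. These shares therefore do not say how many changes can be detected in the real data.

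The comparison, the gene lists (49) and the rules were chosen with earlier results of these data known. Named genes are those called, the 15 per direction with the smallest p that have a symbol and no overlap (predicted genes left out), up to 4 per list with the smallest p, members needed to say which samples are high or low, and a fixed set. Some genes that this rule takes are not reported here. Irf7, Ifnar1, H2-Aa, H2-Eb1, Csf1r, P2ry12, Cx3cr1, Siglech, Gpr34, Ccr2, Ms4a7, Pecam1 and genes with too few counts were named after their values were seen. Lists have no test and are described by counts and medians. Alternatives were other size factors, DESeq2, voom with quality weights, no filter, structural RNAs left out, a replicate block and each replicate left out.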

Additional observations from a re-analysis of the deposited data

How the results depend on the processing

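The same 2 genes were called under RLE size factors, upper-quartile scaling and without the structural RNAs. DESeq2 called 246 genes, no filter beyond 1 count 85 and voom with quality weights 11, and each of these sets held both Rnf213 and Ifit1. Leaving out 1 replicate at a time gave 0 to 105 calls. Whether the replicate numbers pair the retinas is not known. The deviations of same-numbered samples correlated at 0.398, -0.203 and 0.422, and supplemented 2 correlated best with vehicle 3 (0.268). These correlations cannot decide it, because deviations within a group also carry the division of the libraries. With the replicate block 88 genes were called. With the library set as a term, chosen after seeing the data, 300 genes were called, and because the sets come from the same values these p-values are too small. The cause of these differences was not tested.

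Of 99 named genes, 8 changed sign in some setting. Trim25 was at -0.47 with the library set as a term, -0.33 without supplemented 2, -0.17 without vehicle 1 and -0.14 without vehicle 2. Stat3 was at -0.44 with that term, -0.02 without supplemented 2 and -0.13 without supplemented 3. Irgm1 was at 0.09 without vehicle 3, Opn1sw at -0.02 and Gfap at 0.00 without supplemented 1, and Elovl2 at 0.01 with that term and 0.03 without supplemented 2. Siglech was at 0.11 with that term, 0.00 with upper-quartile scaling, 0.19 without supplemented 2, 0.16 without supplemented 3, 0.05 without vehicle 2 and 0.01 without vehicle 3, and Gpr34 at 0.04 without supplemented 2 and 0.19 without supplemented 3. Leaving out 1 replicate at a time, log2 fold changes ranged from -0.33 to 0.83 (Trim25), -0.13 to 0.58 (Stat3), -1.08 to 0.09 (Irgm1), -0.02 to 0.73 (Opn1sw), -0.63 to 0.00 (Gfap), -0.05 to 0.03 (Elovl2), -0.46 to 0.19 (Siglech) and -2.0 to 0.19 (Gpr34), and list medians ranged from -0.86 to -0.81 (interferon-induced effectors), -0.76 to -0.59 (class I), -2.37 to -1.80 (class II) and 0.09 to 0.23 (rods). The age median of the genes lower with 24:5 was -0.02 with a pseudocount of 0.1 and with no filter, and -0.07 to 0.05 with 1 replicate left out.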

Other observations

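Several lists outside the immune, lipid and neuronal groups had medians near 0. Nuclear genes of oxidative phosphorylation were lower in 13 and higher in 11 of 24 cases (median -0.01), genes of the unfolded protein response lower in 10 of 15 (-0.04) and clock genes higher in 11 of 17 (0.04). Heat shock genes were higher in 9 of 10 (0.12), with 0 at an unadjusted p under 0.05. Pericyte and smooth muscle genes were lower in 8 of 9 (median -0.29), with 1 at an unadjusted p under 0.05. Immediate early genes, which respond within minutes to stimulation and handling, summed to 85.0, 98.7 and 206 CPM with vehicle and 59.4, 179 and 169 CPM with 24:5, a division of the libraries that crossed the groups. Pigment epithelium genes, from the tissue next to the photoreceptors, summed to 112 to 392 CPM with vehicle and 203 to 365 CPM with 24:5.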
